A study of Homo sapiens with 7 samples.

Results

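The erythroid transcription factors described here are GATA1, GATA2, KLF1, TAL1, NFE2, LMO2, ZFPM1, GFI1B, BCL11A and LYL1. They were taken by gene symbol and NCBI gene ID from a table of counts for 25702 genes, and all 10 were found in it. RNA was sequenced from 7 lines derived from K562, 1 library for each. K562 is a long established line from chronic myeloid leukemia with the fusion kinase BCR::ABL1. The 2 controls were the drug naive line and the line kept in DMSO, the vehicle. The resistant (DasR) lines were K562 cells grown in dasatinib, a tyrosine kinase inhibitor of BCR::ABL1, with the dose raised stepwise within a single escalation series. Those at 10, 15 and 25 nM formed the early stage group and those at 50 and 200 nM the late stage group, stages that the study chose from clustering of these same libraries. All 7 lines share the K562 background and carry its fusion, but the state of the fusion is not the same in all. The paper reports raised transcript levels and copy number of the fusion in resistant lines. It also reports a mutation in the kinase domain of the fusion in the lines at higher doses. Dose is therefore not the only known difference between the groups.

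In red cell formation the GATA factors bind DNA at GATA letters, and GATA1 takes over from GATA2 at shared sites as progenitors mature. GATA1 acts with its cofactor ZFPM1 (also called FOG1) and with a complex in which the helix-loop-helix factor TAL1, paired with an E protein such as TCF3, is joined to it by the bridging proteins LMO2 and LDB1. LYL1 is a close relative of TAL1. KLF1 switches on globin, heme and membrane genes, NFE2 pairs with small MAF proteins at globin enhancers, and the repressors GFI1B and BCL11A silence progenitor genes and fetal globin, respectively. K562 cells are labelled erythroblast, and all 15 erythroid markers listed (SLC4A1, ALAS2 and the globins HBG1, HBG2, HBE1, HBZ, HBA1 and HBA2 among them) had more than 3 counts in some line. That low bar does not tell lineages apart, since most markers of other lineages met it too. It was missed by 3 of 14 granulocyte and monocyte, 5 of 12 lymphoid and 2 of 12 stroma and endothelium markers.

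Of the 10 factors, 8 had a promoter window in RefSeq (GRCh38.p14), 15 windows in all, cut here to the 250 bases before the gene's start. NFE2 and LMO2 had no entry. The windows were searched on both strands for AGATAA or AGATAG, and likewise for TGATAA or TGATAG, the letters GATA factors are known to prefer, none of which contains another. At least 1 match was present in 4 of the 15 windows (26.7%), 1 each of KLF1, TAL1, GFI1B and LYL1, close to the 22.3% of all 35116 windows of the same length that held one. The windows printed here are those of GATA2 and ZFPM1, the 2 factors with a changed level that have an entry, and of KLF1, TAL1 and LYL1, which hold matches (for GATA2 and TAL1 the first of 2). Each reads 5′ to 3′ on the gene's strand, and capitals mark GATA letters or their complement.
GATA2, chr3:128493202-128493451, minus strand: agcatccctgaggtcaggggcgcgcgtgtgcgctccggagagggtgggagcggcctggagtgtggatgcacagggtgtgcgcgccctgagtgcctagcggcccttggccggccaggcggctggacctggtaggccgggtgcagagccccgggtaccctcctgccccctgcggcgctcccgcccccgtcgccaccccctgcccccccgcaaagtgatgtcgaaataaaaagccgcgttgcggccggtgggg
ZFPM1, chr16:88453030-88453279, plus strand: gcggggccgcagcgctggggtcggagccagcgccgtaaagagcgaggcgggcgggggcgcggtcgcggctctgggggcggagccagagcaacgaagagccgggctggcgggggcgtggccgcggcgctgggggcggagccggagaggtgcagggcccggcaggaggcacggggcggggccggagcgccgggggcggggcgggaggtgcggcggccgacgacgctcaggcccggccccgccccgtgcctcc
KLF1, chr19:12887202-12887451, minus strand: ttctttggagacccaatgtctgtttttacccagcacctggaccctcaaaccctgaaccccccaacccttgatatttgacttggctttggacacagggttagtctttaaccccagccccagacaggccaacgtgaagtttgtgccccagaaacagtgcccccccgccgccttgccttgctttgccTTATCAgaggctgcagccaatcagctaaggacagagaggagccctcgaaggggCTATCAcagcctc
TAL1, chr1:47232336-47232585, minus strand: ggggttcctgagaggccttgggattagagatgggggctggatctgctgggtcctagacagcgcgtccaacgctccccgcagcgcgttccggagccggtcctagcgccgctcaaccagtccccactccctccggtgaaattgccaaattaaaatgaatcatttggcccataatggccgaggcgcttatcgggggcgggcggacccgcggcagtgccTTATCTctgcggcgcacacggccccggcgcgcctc
LYL1, chr19:13102859-13103108, minus strand: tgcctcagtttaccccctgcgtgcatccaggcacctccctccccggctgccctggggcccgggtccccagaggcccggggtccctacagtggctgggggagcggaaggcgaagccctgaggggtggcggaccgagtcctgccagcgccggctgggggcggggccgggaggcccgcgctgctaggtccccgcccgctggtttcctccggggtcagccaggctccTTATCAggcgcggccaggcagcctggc
In KLF1 the matches began 66 and 13 bases before the start, and 4.96% of all windows held 2 or more. The single matches of TAL1 and LYL1 lay 35 and 27 bases before the start, and that of GFI1B lay 116 bases before its other start. No match was found in the windows of GATA1, GATA2, ZFPM1 or BCL11A. A match describes the letters in this window and says nothing of binding. The E-box letters bound by TAL1 with an E protein, CAGNTG, were found in 5 of the 15 windows (33.3%, against 42.5% of all windows), those of KLF1, GATA2 (its other start), GFI1B (both) and BCL11A (1 of 5), and in neither TAL1 window.

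The libraries of the controls held 21007761 (drug naive) and 24037893 (DMSO) counts, those of the early stage 27808639 (10 nM), 27844799 (15 nM) and 20059656 (25 nM), and those of the late stage 20827519 (50 nM) and 21588772 (200 nM). Levels are given as CPM, the gene's counts scaled to the total of its library. In bulk RNA, fewer cells of a type and less RNA per cell cannot be told apart. Groups were compared with edgeR's quasi-likelihood test over the 10452 genes that reached 10 CPM in 2 or more libraries, and a gene was called changed at an adjusted p under 0.005, the study's threshold. Because no line was sequenced more than once, the lines of a group serve as its replicates. The p-values measure the spread between lines, dose included. The DasR lines are steps of a single escalation series, and the stages were chosen from these same expression values. The lines of a stage are thus not independent replicates, and p-values may be too small, by an amount that was not tested. Both stages were set against the same 2 control lines.

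GATA2 fell in the early stage lines, while LMO2 and ZFPM1 rose in both stages. GATA1 itself, KLF1, TAL1, NFE2, GFI1B and LYL1 were not called in either stage. Against the controls, 3 of the 9 factors tested were called in the early stage (33.3%, where 18.0% of all genes were), 2 higher (7.92% of all genes) and 1 lower (10.1%). In the late stage 2 of 9 were called, both higher, where 7.98% of all genes were called, 3.42% higher and 4.56% lower. Without the drug naive line or without the DMSO line no factor was called in either stage, while the genes called overall dropped from 1881 to 208 or 529 in the early stage and from 834 to 33 or 110 in the late stage. Without the 15 nM or the 25 nM line 1 factor was called in the early stage (889 and 535 genes overall), and without the 200 nM line 1 was called in the late stage (281 genes overall).

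**Figure D1:**
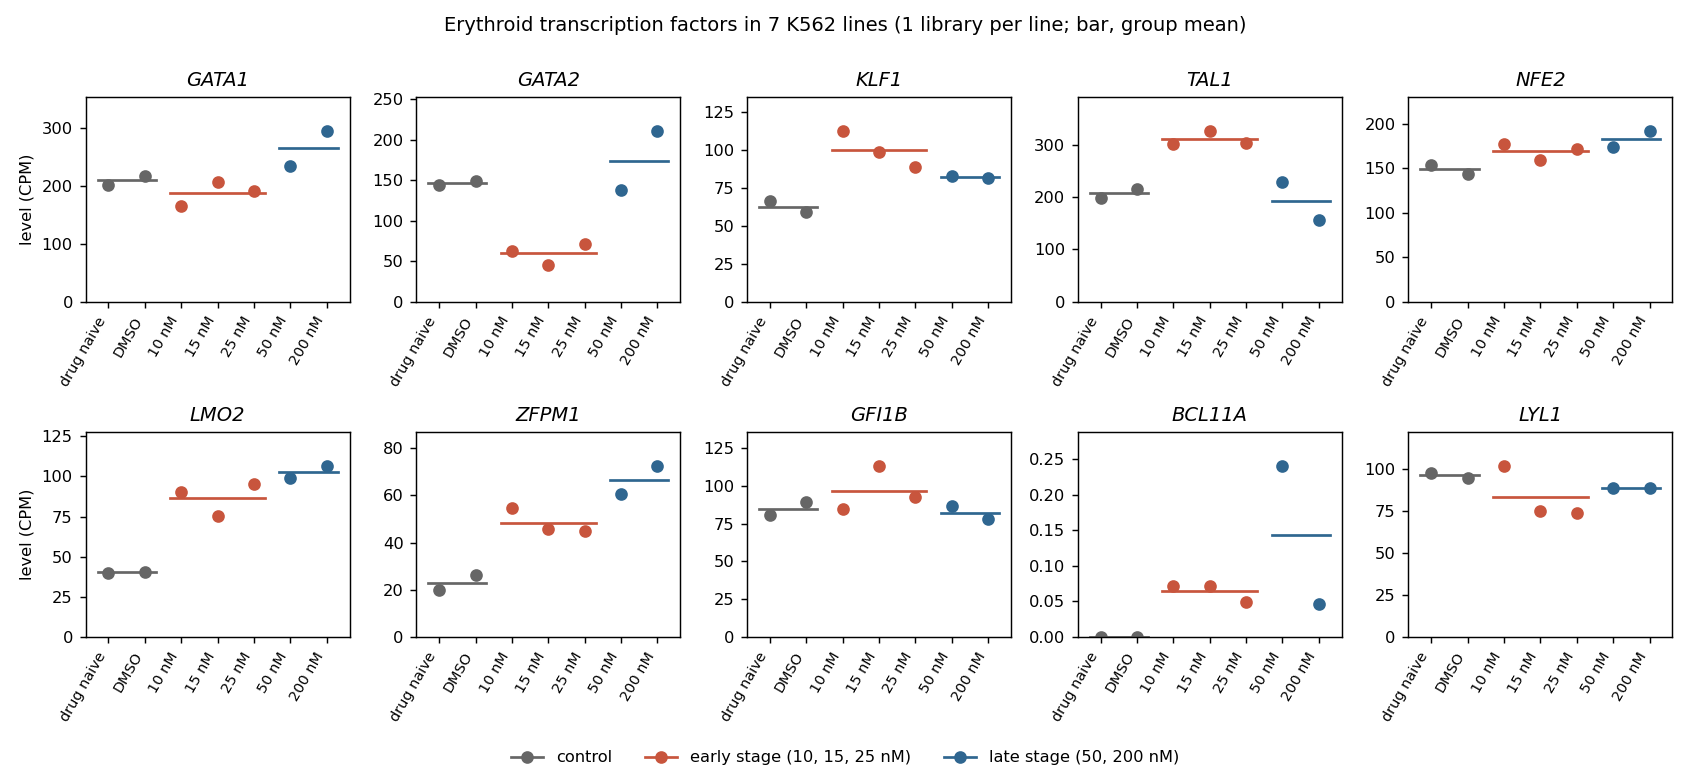
Level of each of the 10 factors in CPM (vertical axis, from 0, with its own scale in each panel) in the 7 K562 lines (horizontal axis), where each point is 1 library and each bar the mean of a group. GATA2 lies between 45.4 and 71.3 CPM in the early stage lines and at 137 CPM or more in the other lines, LMO2 and ZFPM1 lie higher in all DasR lines than in the controls, and BCL11A stays under 0.25 CPM.

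GATA2, the progenitor GATA factor (chr3:128198270-128212044, minus strand, GRCh37), stood at 144.0 CPM (drug naive) and 149.5 CPM (DMSO) in the controls. In the early stage lines it was 62.5 CPM at 10 nM, 45.4 at 15 nM and 71.3 at 25 nM. In the late stage lines it was 137.4 CPM at 50 nM and 211.2 at 200 nM. The early stage lines are thus all below the controls without overlap, whereas the late stage lines lie on both sides of them. The early stage level was 2.48-fold lower than control (log2 fold change -1.31 ± 0.22 SE, n = 3 and 2, adjusted p = 0.00355 by edgeR). The late stage level did not pass the test (log2 fold change 0.22 ± 0.25 SE, adjusted p = 0.506). The early stage call was lost when any 1 control or early stage line was left out, with an adjusted p of 0.0267 without the drug naive line, 0.0204 without the DMSO line, 0.00991 without 10 nM, 0.00702 without 15 nM and 0.00779 without 25 nM, at log2 fold changes between -1.46 and -1.15. With all 5 DasR lines as 1 group the log2 fold change was -0.50 and the adjusted p 0.524. An antisense gene, GATA2-AS1, overlaps GATA2, and the strand setting of the read counting is not given in the sources used here.

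GATA1, the main erythroid GATA factor (chrX:48644948-48652718, plus strand), was at 201.3 and 217.5 CPM in the drug naive and DMSO lines. It was 165.3, 205.6 and 191.3 CPM at 10, 15 and 25 nM and 234.8 and 294.7 CPM at 50 and 200 nM. The early stage lines overlap the controls, and both late stage lines lie above every other line. Neither difference from control was called, with a log2 fold change of -0.18 ± 0.13 SE in the early stage (adjusted p = 0.283) and 0.32 ± 0.14 SE at the late stage (adjusted p = 0.115).

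Compared per length, as RPKM (CPM divided by the gene length in kilobases, as the deposited tables give it), GATA1 exceeded GATA2 in every line. The ratio of GATA1 to GATA2 was 3.55 in drug naive and 3.70 in DMSO cells. It was 6.73 at 10 nM, 11.5 at 15 nM and 6.82 at 25 nM, then 4.35 at 50 nM and 3.55 at 200 nM. All early stage ratios are higher than those of any other line, and the 200 nM line lies within 0.01 of the drug naive line. With coding length in place of the deposited length, the group means became 1.94 (control), 4.48 (early) and 2.11 (late) in place of 3.63, 8.36 and 3.95. The ratio was formed after the levels were seen and was not tested.

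**Figure D2:**
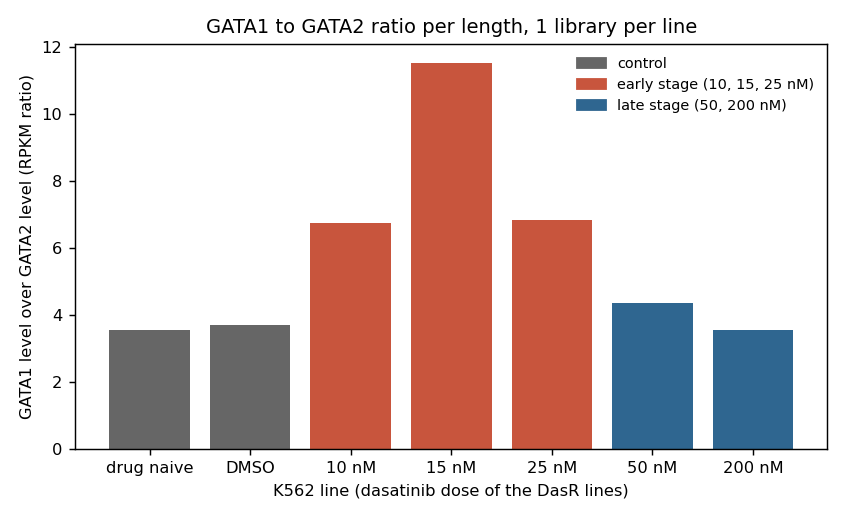
Ratio of the GATA1 level to the GATA2 level, both as RPKM (vertical axis, from 0), in each of the 7 K562 lines (horizontal axis), with 1 library per line and therefore no error bar. The bars of the 3 early stage lines reach 6.73 to 11.5 and those of the other lines 3.55 to 4.35.

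LMO2, the bridging protein of the TAL1 complex (chr11:33880122-33913623, minus strand), was at 39.8 CPM (drug naive) and 40.7 CPM (DMSO) in the controls. It stood at 90.2, 75.0 and 95.1 CPM in the 10, 15 and 25 nM lines and at 99.1 and 106.3 CPM in the 50 and 200 nM lines. Every DasR line was above both controls, and the late stage lines were above the early stage lines. The level rose 2.13-fold in the early stage (log2 fold change 1.09 ± 0.12 SE, adjusted p = 0.000762) and 2.51-fold in the late stage (log2 fold change 1.33 ± 0.13 SE, adjusted p = 0.000989). Without the drug naive line the adjusted p became 0.00986 in the early and 0.0117 in the late stage, and without the DMSO line 0.00779 and 0.00818, with log2 fold changes between 1.08 and 1.34.

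ZFPM1, the GATA1 cofactor (chr16:88519688-88603439, plus strand), had the lowest control level of the 9 factors tested, at 19.8 CPM (drug naive) and 26.2 CPM (DMSO). It was 54.7, 45.8 and 44.8 CPM at 10, 15 and 25 nM and 60.7 and 72.3 CPM at 50 and 200 nM. As with LMO2, neither stage overlaps the controls and the late stage lines are the highest. ZFPM1 rose 2.09-fold in the early stage (log2 fold change 1.06 ± 0.15 SE, adjusted p = 0.00209) and 2.85-fold in the late stage (log2 fold change 1.51 ± 0.17 SE, adjusted p = 0.00141). The early stage call was lost without the drug naive line (adjusted p = 0.019), the DMSO line (0.00672), the 15 nM line (0.00534) or the 25 nM line (0.00696). The late stage call was lost without the drug naive line (adjusted p = 0.0125), the DMSO line (0.00625) or the 200 nM line (0.00621). In the fits that lost the call, the log2 fold change lay between 0.90 and 1.25 in the early stage and between 1.35 and 1.70 in the late stage. The gene ZFPM1-AS1 overlaps ZFPM1 on the opposite strand.

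KLF1, the activator of globin and membrane genes (chr19:12995236-12998015, minus strand), was at 66.2 and 58.9 CPM in the controls, 112.4, 98.4 and 88.5 CPM at 10, 15 and 25 nM, and 82.6 and 81.1 CPM at 50 and 200 nM. All DasR lines exceeded both controls, with the early stage lines highest. The early stage difference lay just outside the threshold (log2 fold change 0.66 ± 0.13 SE, adjusted p = 0.00565), and the late stage difference further from it (0.36 ± 0.14 SE, adjusted p = 0.0758). It passed in the early stage with library totals alone (adjusted p = 0.00411), with no filter on low counts (0.00279) and by DESeq2 (2.97e-05). By edgeR it did not pass with the 2 groups alone (adjusted p = 0.00849) or without 1 early stage line (0.00987 to 0.0151). Nor did KLF1 pass with all 5 DasR lines as 1 group (0.0327). Without the drug naive line its early stage log2 fold change was 0.775, and without the DMSO line 0.549. In these fits, which leave 1 control line, KLF1 did not pass.

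TAL1, the helix-loop-helix factor (chr1:47681962-47697897, minus strand), was at 198.7 and 215.4 CPM in the controls and at 301.9, 326.4 and 302.2 CPM at 10, 15 and 25 nM. In the late stage it was 229.0 CPM at 50 nM and 155.8 at 200 nM, which lie above and below the control range. The early stage lines are all above every other line. The log2 fold change was 0.57 ± 0.16 SE in the early stage (adjusted p = 0.0232) and -0.12 ± 0.17 SE at the late stage (adjusted p = 0.604). Leaving out 1 early stage line gave an early stage adjusted p of 0.0446 to 0.0579 by edgeR. Taking all 5 DasR lines as 1 group gave 0.393, at a log2 fold change of 0.33. Without the drug naive line the early stage log2 fold change was 0.541, and without the DMSO line 0.598. In these fits, which leave 1 control line, TAL1 did not pass. The early stage difference did pass when the late stage lines were left out of the fit (adjusted p = 0.00199), when either of them was (0.00221 without 50 nM and 0.00212 without 200 nM), and by DESeq2 (0.00121).

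LYL1, the TAL1 relative (chr19:13209847-13213975, minus strand), was at 97.4 and 94.8 CPM in the controls, 101.5, 75.0 and 73.8 CPM at 10, 15 and 25 nM, and 88.5 and 88.6 CPM at 50 and 200 nM. The 10 nM line is the highest of all, so the early stage overlaps the controls, and neither stage was called (adjusted p = 0.262 and 0.534). Per length, the ratio of TAL1 to LYL1, also formed after the levels were seen, was 0.607 and 0.677 in the controls, 0.886, 1.30 and 1.22 at 10, 15 and 25 nM, and 0.771 and 0.524 at 50 and 200 nM. With the deposited length TAL1 exceeded LYL1 at 15 and 25 nM and was below it in the other 5 lines. With coding length, an alternative added after the data were seen, TAL1 exceeded LYL1 in all 7 lines, with ratios of 1.72 and 1.92 in the controls, 2.52, 3.68 and 3.46 at 10, 15 and 25 nM, and 2.19 and 1.49 at 50 and 200 nM. The order of the pair thus changed with the length used. Coding length is 993 bases for TAL1 and 840 for LYL1, and the deposited length 5002 and 1490. The counts are per gene and not per coding part, so the deposited length is the nearer match to them. With either length the 3 early stage ratios exceeded those of the other 4 lines.

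NFE2, the partner of small MAF proteins (chr12:54685895-54694799, minus strand), had the smallest ratio of highest to lowest line among the tested factors, from 143.9 CPM in the DMSO line to 192.0 CPM at 200 nM. All DasR lines were above both controls, by a log2 fold change of 0.17 ± 0.09 SE in the early stage (adjusted p = 0.172) and 0.28 ± 0.10 SE at the late stage (adjusted p = 0.0748). GFI1B, the repressor (chr9:135819387-135867074, plus strand), ranged from 77.8 CPM at 200 nM to 113.0 CPM at 15 nM. Both stages overlap the controls, which had 80.7 and 89.0 CPM, and neither was called (adjusted p = 0.312 and 0.756). TSC1 overlaps GFI1B on the opposite strand, and annotated genes without a symbol likewise overlap LMO2, TAL1 and NFE2, so the doubt about strand given for GATA2 holds for these factors too.

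BCL11A, the fetal globin repressor (chr2:60677655-60781602, minus strand), was at or near 0. It had 0 counts in the drug naive and DMSO lines, 2, 2 and 1 counts in the 10, 15 and 25 nM lines, and 5 and 1 counts in the 50 and 200 nM lines. A count of 0 allows a level of up to 0.143 CPM in the drug naive line and 0.125 CPM in the DMSO line, taking 3 counts as the limit, and these limits cover counting error only. BCL11A did not pass the filter and is the factor left out of the 9 tested. No fold is given, and a difference between the groups was not detectable at this depth.

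**Figure D3:**
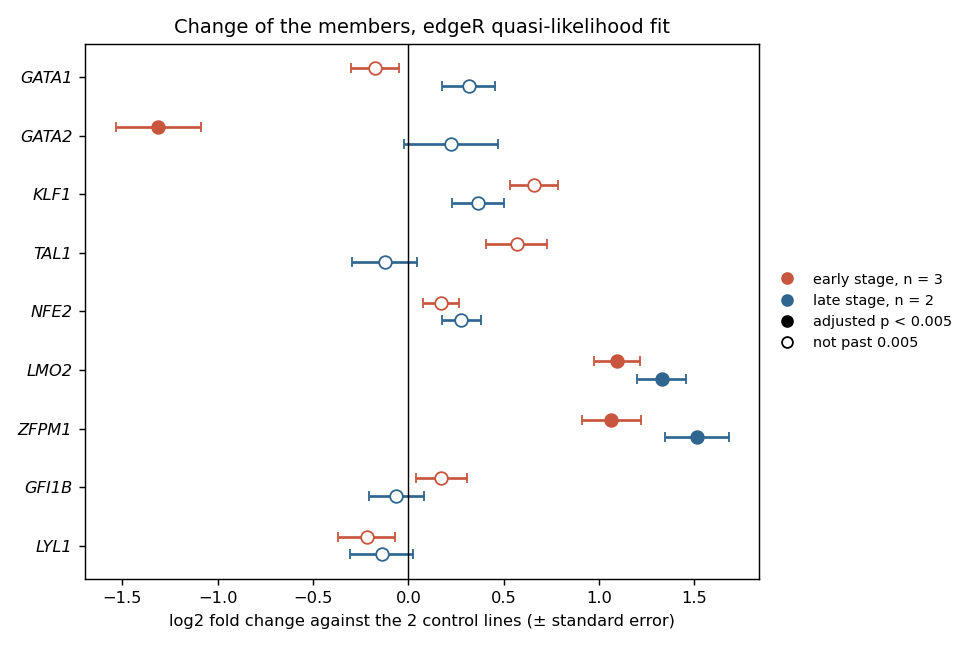
Log2 fold change against the 2 control lines (horizontal axis) of the 9 tested factors (vertical axis) in the early stage (n = 3 lines) and late stage (n = 2 lines), with points for the edgeR estimate and bars for ± 1 standard error. Filled points have an adjusted p under 0.005, which are GATA2 in the early stage and LMO2 and ZFPM1 in both.

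With a looser threshold of 0.05, 5 of 9 factors passed in the early stage, 4 higher (LMO2, ZFPM1, KLF1 and TAL1) and 1 lower (GATA2), where 46.5% of all genes passed. In the late stage 2 passed, both higher, where 33.9% of all genes did. The groups did not overlap for 6 of 9 factors in the early stage and for 6 of 9 in the late stage. Among all genes they did not overlap for 69.8% and 67.7%, so absence of overlap was no more frequent among the factors. The median log2 fold change of the 9 factors was 0.17 (early) and 0.28 (late), and that of all genes 0.00 in both comparisons.

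Between the stages, no factor and no gene passed an adjusted p of 0.005 (0.0% of all genes) by edgeR, although 3450 genes had an unadjusted p under 0.05 and the smallest adjusted p was 0.0167. By limma-voom 0 genes passed, and by DESeq2 1135 did, among them 3 of the factors. GATA2 was 2.90-fold higher in the late than in the early stage lines in the edgeR fit (log2 difference 1.54 ± 0.22 SE, adjusted p = 0.0167), TAL1 had a log2 difference of -0.69 ± 0.16 SE (adjusted p = 0.0354) and GATA1 one of 0.49 ± 0.12 SE (adjusted p = 0.0447). These 3 are the factors under 0.05, 2 higher and 1 lower, where 12.7% of all genes were under it, 6.6% higher and 6.1% lower. They are also the 3 that DESeq2 called, with adjusted p of 3.29e-10 for GATA2, 0.000229 for TAL1 and 0.00268 for GATA1. With edgeR on the 2 stages alone, the adjusted p was 0.0358 for GATA2, 0.0631 for TAL1 and 0.0707 for GATA1. GATA2 did pass 0.005 by edgeR with no filter on low counts (log2 difference 1.58, adjusted p = 0.00296), where 295 genes passed. Without the 200 nM line all 3 were above 0.05 (0.0845, 0.102 and 0.247) and the log2 differences shrank to 1.21, -0.43 and 0.33. Without the 50 nM line they were 1.81, -1.01 and 0.64 (adjusted p = 0.00525, 0.00416 and 0.021), so that TAL1 alone of the factors passed 0.005, with 198 genes called overall. Without any 1 of the control or early stage lines GATA2 stayed under 0.05, and TAL1 and GATA1 did not (0.058 to 0.113). Groups did not overlap for 6 of the 9 factors and for 53.3% of all genes. LMO2 and ZFPM1 did not pass, with log2 differences of 0.24 ± 0.11 and 0.45 ± 0.15 SE.

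Ordered by RPKM in the controls, GATA1 was highest at 141 ± 7.73 (SD, n = 2), followed by NFE2 at 79.7 ± 3.57, LYL1 at 64.5 ± 1.27 and GFI1B at 47.4 ± 3.26. TAL1, GATA2 and KLF1 came next at 41.4 ± 2.36, 39.0 ± 1.02 and 38.7 ± 3.16, and the range of KLF1 overlapped those of TAL1 and GATA2. LMO2 at 16.7 ± 0.247 and ZFPM1 at 7.09 ± 1.41 were lowest. In the early stage GATA1 (127 ± 13.8, n = 3) and NFE2 (90.8 ± 4.8) kept the top places, and the lines of TAL1, KLF1, LYL1 and GFI1B overlapped below them. GATA2 fell there from place 6 to place 8, at 15.9 ± 3.50, and overlapped ZFPM1 at 14.9 ± 1.68. In the late stage GATA2 (46.3 ± 13.9, n = 2) overlapped KLF1, GFI1B, LMO2 and TAL1. The order changed with coding length, which is the poorer match to counts per gene. With it TAL1 was at place 1 in all 3 groups, and GATA1 at place 2 (control), 3 (early) and 2 (late).

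Over the 7 lines, log2 CPM of the factors moved in a few common patterns, given here as Pearson's r with no test because the lines share the groups described above. GATA2 and TAL1 ran opposite to each other (r = -0.96), and so, less closely, did GATA1 and TAL1 (r = -0.83) and GATA2 and GFI1B (r = -0.80). LMO2 and ZFPM1 ran together (r = 0.96), and NFE2 ran with both (r = 0.87 and 0.83). The gene of the tested table most like GATA2 was PSTPIP2 (r = 0.995), followed by FCGR2A (r = 0.995) and ITGA2B (r = 0.993), the integrin subunit of megakaryocytes and platelets. Those most like TAL1 were BRCA2 (r = 0.996), the glycophorin gene GYPE (r = 0.995) and TNS3 (r = 0.994). HNRNPH1, UBQLN4 and NCL were most like LMO2 (r = 0.996, 0.992 and 0.992), and GAL, MALSU1 and HDGF most like ZFPM1 (r = 0.995, 0.993 and 0.992). For GATA1 these were RPP21, ANKS6 and CHFR (r = 0.995, 0.987 and 0.978), and for KLF1 WDR81, AGRN and TP53RK (r = 0.989, 0.979 and 0.976). TOP1MT, MGAT3 and ZNF516 were most like NFE2 (r = 0.972, 0.96 and 0.96), GFER, LINC00202-2 and VPS18 most like GFI1B (r = 0.978, 0.957 and 0.957), and MAPK8, MARCH8 and GPR85 most like LYL1 (r = 0.987, 0.974 and 0.966). With ranks over 7 lines many genes tie, with 15 genes at a Spearman correlation of 1 with GATA2 and 23 with TAL1.

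The partners and corepressors of these factors changed in part. Of 40 listed, all tested, 3 rose and 7 fell in the early stage (25.0% called, where 18.0% of all genes were), and 1 fell in the late stage (2.5%, where 7.98% of all genes were called). Their median log2 fold change was 0.04 in the early and 0.08 in the late stage. LDB1, which LMO2 binds, had 160 and 182 CPM in the controls against 177 to 194 CPM at 10 to 25 nM and was not called (log2 fold change 0.09 ± 0.09 SE, adjusted p = 0.433). SSBP2, which stabilises LDB1, fell in the early stage by 0.86 ± 0.15 SE on the log2 scale (adjusted p = 0.00407), and LMO4, a relative of LMO2 that also binds LDB1, fell by 0.60 ± 0.11 SE (adjusted p = 0.00441). Among the E proteins that pair with TAL1, TCF4 rose in the early stage by a log2 fold change of 1.14 ± 0.16 SE (adjusted p = 0.00179), from 57.2 and 54.1 CPM in the controls to between 113 and 133 CPM. In the same lines TCF12 fell by 0.56 ± 0.10 SE (adjusted p = 0.00371). TCF3 had 142 and 158 CPM in the controls against 211 to 224 CPM at 10 to 25 nM, which did not pass (log2 fold change 0.51 ± 0.10 SE, adjusted p = 0.007). The small MAF protein MAFK, which pairs with NFE2, rose by 0.96 ± 0.13 SE in the early stage (adjusted p = 0.00142). The other small MAF proteins listed were not called, with log2 fold changes of -1.82 ± 0.42 SE for MAFF (adjusted p = 0.0108), which was at 12.7 and 8.49 CPM in the controls and 2.77 to 3.49 CPM in the early stage lines, and -0.21 ± 0.11 SE for MAFG (adjusted p = 0.158). NFE2L1, an NFE2 relative, fell in both stages, by 0.84 ± 0.10 and 0.78 ± 0.11 SE on the log2 scale (adjusted p = 0.000951 and 0.00315). RCOR1, the corepressor recruited by GFI1B, fell in the early stage by 0.99 ± 0.14 SE (adjusted p = 0.00209), as did the mitochondrial chaperone HSPA9, the most abundant of the list. Without the drug naive, the DMSO or the 25 nM line none of the 40 was called in the early stage, and without the 10 or the 15 nM line 4 and 3 were, while the genes called overall dropped from 1881 to 208, 529, 535, 1111 and 889. The 1 late stage call of the list, NFE2L1, was lost without any 1 of the 7 lines. For other lists, the early stage counts that follow without a control or early stage line stand beside these same totals. Early stage counts without a late stage line, and all late stage counts, do not share them. In the late stage the genes called overall were 834 with all lines, and 590, 596 and 274 without the 10, 15 and 25 nM line.

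Relatives of the factors were also counted, as genes whose products could bind like sites. Of 33 listed (TAL1 and LYL1 included), 19 were tested, and in the early stage 4 rose and 4 fell (42.1% called, against 18.0% of all genes). GATA6, a GATA factor of other tissues, was at 0.524 and 0.541 CPM in the controls and at 9.13, 16.9 and 13.9 CPM at 10, 15 and 25 nM, a log2 fold change of 4.61 ± 0.47 SE (adjusted p = 0.000597). Its level thus stayed below that of GATA2, which had 45.4 CPM or more in every line. ZFPM2, the relative of ZFPM1, rose as well in the early stage, from 28.8 and 26.3 CPM to 48.8, 77.9 and 66.7 CPM (log2 fold change 1.21 ± 0.21 SE, adjusted p = 0.00407), and was at 32.5 and 25.2 CPM in the late stage lines. KLF8 rose in both stages (log2 fold change 3.26 ± 0.20 and 3.03 ± 0.21 SE, adjusted p = 0.000118 and 0.000432), from under 2 CPM to between 13.1 and 17.2 CPM. GATA6 and KLF8 were under 10 CPM in both controls and entered the tested set only through the DasR lines in which they were high, and the share called is therefore no support for a change of the list. Among all genes, 342 of the 1881 called (18.2%) were likewise under 10 CPM in every line of 1 of the groups compared. KLF9, NFE2L2, NFE2L1 and LMO4 were the 4 that fell in the early stage. Of the 19 tested, 1 rose (KLF8) and 1 fell (NFE2L1) in the late stage, 10.5% called, near the 7.98% of all genes. The early stage count of 8 became 1 without either control line, 6 without 10 nM, 4 without 15 nM and 3 without 25 nM, and the late stage count of 2 became 1 without any 1 line but 10 nM.

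Among the known targets of GATA1 and KLF1, more genes were called higher than lower in the early stage lines. Of 24 hemoglobin and heme genes 20 were tested, 6 rose and none fell in the early stage (30.0% called, where 18.0% of all genes were), with a median log2 fold change of 0.80. HBA2, an alpha globin gene, was at 69.7 and 131 CPM in the controls, 1100, 1268 and 1093 CPM at 10, 15 and 25 nM, and 505 and 138 CPM at 50 and 200 nM (early stage log2 fold change 3.51 ± 0.57 SE, adjusted p = 0.00307). HBG1, a fetal globin gene, rose by a log2 fold change of 1.24 ± 0.19 SE in the early stage (adjusted p = 0.0024). Reads of HBA2 and HBG1 may be shared with their near-identical copies, HBA1 and HBG2, so the split between copies is uncertain. TFRC, the transferrin receptor, rose by 1.13 ± 0.12 SE in the early stage and 0.85 ± 0.13 SE at the late stage (adjusted p = 0.000677 and 0.00373). TFRC was the 1 gene of the list that rose in the late stage, where the heme transporter ABCB10 fell (10.0% of the list called, against 7.98% of all genes). Left without either control line or without 15 nM, 1 gene of the list was called in the early stage, and without 10 or 25 nM 2 were. The late stage calls of TFRC and ABCB10 were both lost without any 1 of the control or early stage lines, and 1 gene of the list was called without 50 or 200 nM.

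Of 33 red cell membrane and other erythroid target genes 29 were tested, and 9 rose and 2 fell in the early stage (37.9% called, against 18.0% of all genes, 7.92% higher and 10.1% lower), with a median log2 fold change of 1.08. ANK1, which anchors the membrane skeleton, rose in both stages (log2 fold change 1.08 ± 0.09 and 0.70 ± 0.09 SE, adjusted p = 0.000262 and 0.00253). SPTB, or beta spectrin, and EPOR, the erythropoietin receptor, rose in the early stage by 1.02 ± 0.12 and 0.99 ± 0.15 SE. TSPAN33 went from 0.762 and 0.832 CPM in the controls to 21.4, 47.8 and 28.1 CPM at 10, 15 and 25 nM (log2 fold change 5.32 ± 0.51 SE, adjusted p = 0.000489). The 2 that fell were TMCC2 and the kinase gene PIM1, a target of STAT5 signaling. Of the 11 called, TSPAN33, CA2 and TMCC2 were under 10 CPM in all lines of 1 of the groups compared and passed the filter only where they were high, so the share called is no support for a change of the list. The other calls were 7 higher and 1 lower. In the late stage 1 gene of this list rose and 1 fell (6.9%, near the 7.98% of all genes), at a median of 0.39. The early stage count of 11 was 6 without 10 nM, 5 without 15 nM and 4 without 25 nM. It was lower still without either control line, which leaves 1 control line in the fit. Without either late stage line it was higher, as was the count over all genes. The late stage count of 2 was 0 without 25 nM and 1 without 15 nM. It was lower without either control line or without 50 nM, and higher without 200 nM. Those fits leave 1 line in a group and called fewer genes in all than the fit of all lines. Between the stages, where no gene passed by edgeR on the filtered genes of all 7 lines, DESeq2 called 7 of 20 and 12 of 29 genes of these lists, and 10.9% of all genes. The median log2 differences were -0.72 and -0.71 in the edgeR fit, with all 20 hemoglobin and heme genes and 26 of 29 membrane genes lower in the late stage, as were 50.7% of all genes.

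**Figure D4:**
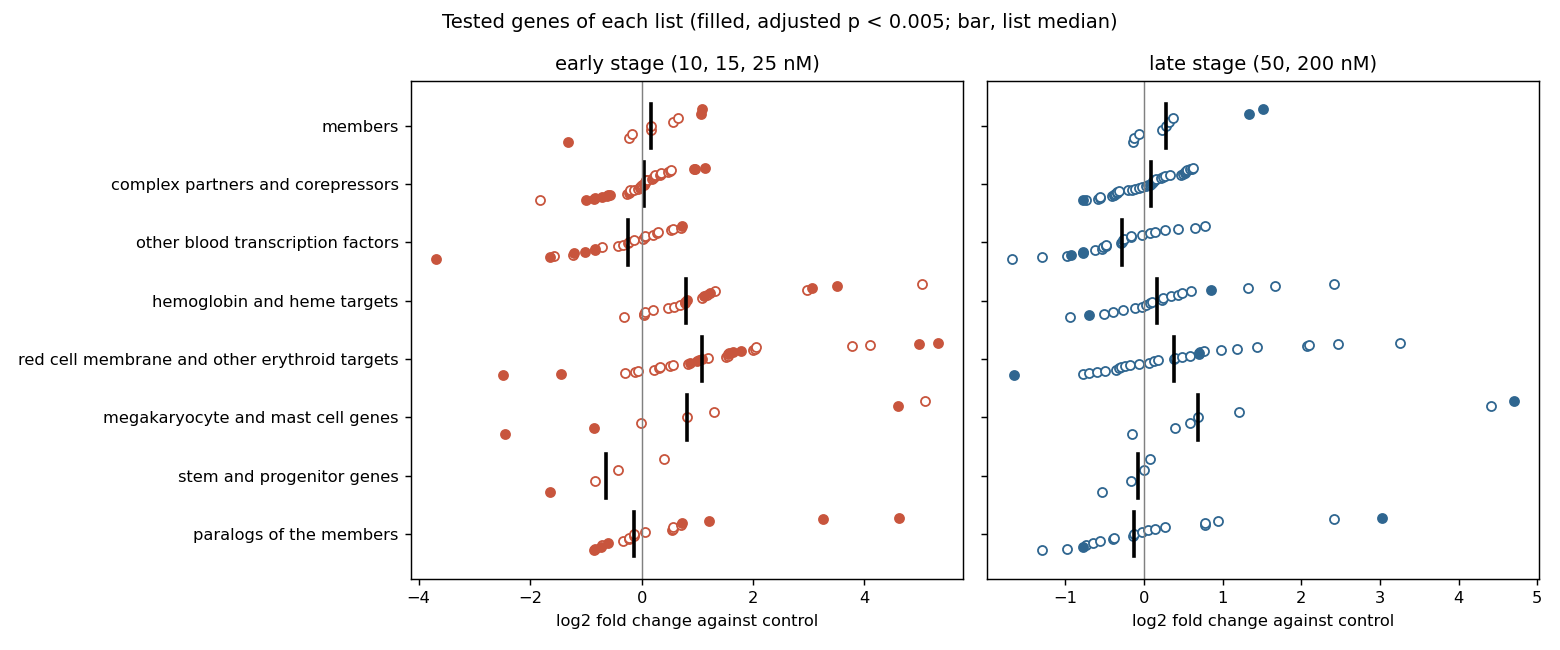
Log2 fold change against control (horizontal axis) of the tested genes of each list (rows) in the early stage (left) and late stage (right), with 1 point per gene, filled at an adjusted p under 0.005, and a bar at the list median. Hemoglobin and heme targets have medians of 0.80 and 0.16 and red cell membrane targets of 1.08 and 0.39, while the factors have medians of 0.17 and 0.28.

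Most genes of neighboring fates were too low to be tested. Of 22 megakaryocyte and mast cell genes, lineages in which GATA2 is also known to act, 7 were tested, and in the early stage 1 rose and 2 fell (3 of 7, or 42.9%, against 18.0% of all genes). ITGA2B was at 63.9 and 52.5 CPM in the controls, 13.4, 5.96 and 13.2 CPM at 10, 15 and 25 nM, and 56.8 and 99.2 CPM at 50 and 200 nM (early stage log2 fold change -2.44 ± 0.37 SE, adjusted p = 0.00234). Both ITGA2B and GATA2 were lowest at 15 nM and highest at 200 nM. The tested genes of the list did not fall as a whole in the early stage. Their median log2 fold change was 0.81, with 4 of the 7 above 0 and 3 below. NBEAL2, needed for platelet granules, also fell in the early stage, by 0.85 ± 0.13 SE, and THBS1, or thrombospondin, rose in both stages. THBS1 was the 1 late stage call of this list (14.3% of the 7 tested, where 7.98% of all genes were called). GP1BB, CLEC1B and the mast cell protease CPA3 had 0 counts in all 7 lines. Of 17 stem and progenitor genes 4 were tested, and 1 of them (25.0%, against the same 18.0%), MEIS1, fell in the early stage by 1.64 ± 0.29 SE on the log2 scale (adjusted p = 0.00397), while CD34 had 3 counts or fewer in every line. MEIS1 reached 10 CPM in the controls alone, and THBS1 in DasR lines alone, so both were tested only because of the group in which they were high. Among 24 tested of 30 other blood transcription factors, 1 rose and 5 fell in the early stage (25.0% called, against 18.0% of all genes, 10.1% lower), MEIS1 and HES1 among them with 1 group under 10 CPM, and 2 fell in the late stage (8.33%, against 7.98%). STAT5B and STAT5A, which carry cytokine and BCR::ABL1 signals, fell by 1.02 ± 0.09 and 1.21 ± 0.15 SE on the log2 scale in the early stage (adjusted p = 0.000412 and 0.0013). STAT5B also fell in the late stage, by 0.94 ± 0.10 SE (adjusted p = 0.00141), as did RUNX1, a factor of stem cells and megakaryocytes, by 0.77 ± 0.11 SE (adjusted p = 0.00297). Leaving out either control line took the early stage counts of these 3 lists from 3, 1 and 6 to 0, 0 and 1. They were 1, 0 and 6 without 10 nM, 1, 0 and 4 without 15 nM and 0, 0 and 2 without 25 nM. The late stage count of 1 for the megakaryocyte and mast cell genes stayed at 1 without 10 or 200 nM and was 0 without any other line, and the count of 2 for the other blood factors was 0 without either control line or without 25 or 50 nM, and 1 without 10 or 200 nM.

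**Figure D5:**
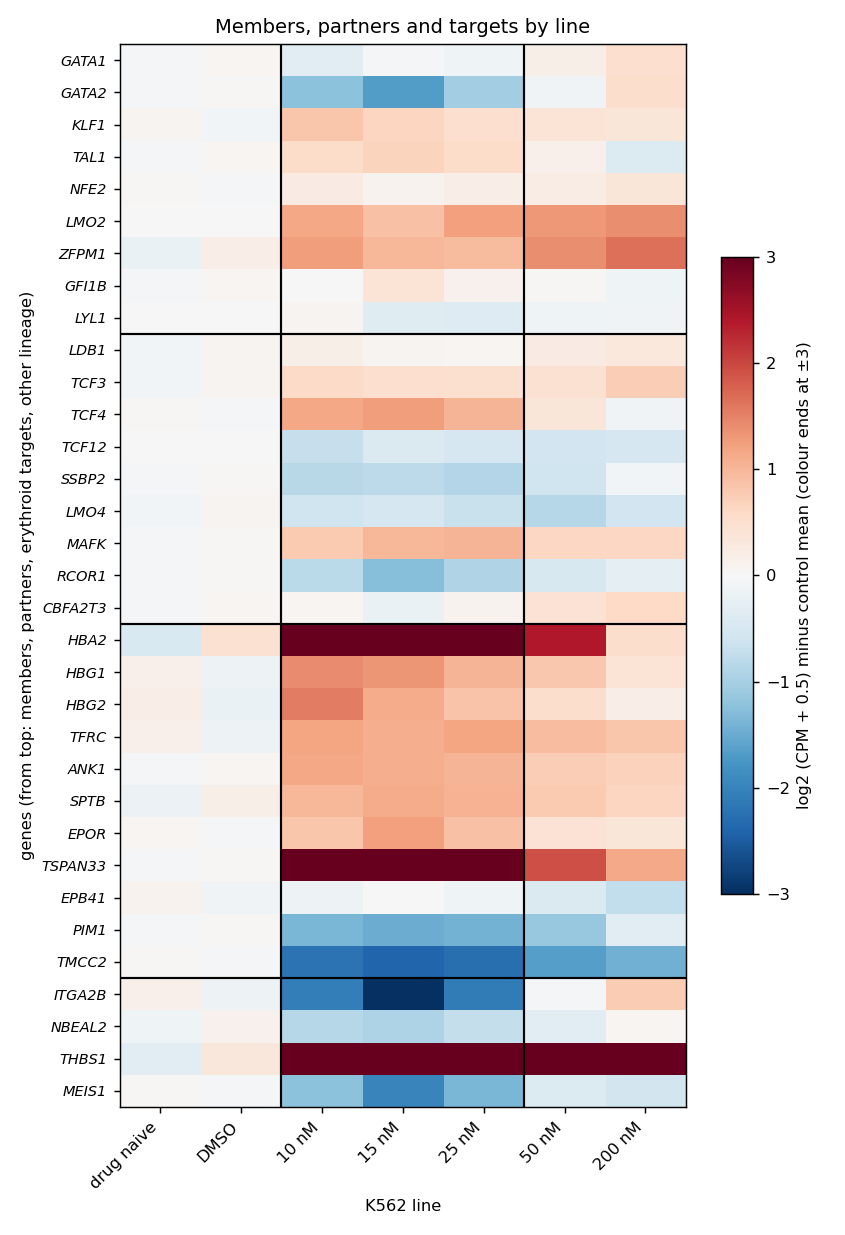
Log2 (CPM + 0.5) minus the mean of the 2 controls (color, ending at ± 3) for 9 factors, their partners, erythroid targets and genes of other fates (rows) in the 7 K562 lines (columns). GATA2 and ITGA2B are low in the 10, 15 and 25 nM columns alone, LMO2 and ZFPM1 are high in all DasR columns, and HBA2 and TSPAN33 are highest in the early stage columns.

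The summed level of the 15 erythroid markers moved with the stages, from 4608 and 4202 CPM in the controls to 13480, 14900 and 11720 CPM at 10, 15 and 25 nM, and 7672 and 5502 CPM at 50 and 200 nM. Its most abundant gene was HBG2. The summed level of the 10 factors was 1001 and 1036 CPM in the controls, 1131 to 1150 CPM at 10 to 25 nM, and 1193 and 1280 CPM at 50 and 200 nM. The part of cell maturity in the levels of the factors was not tested. Of 14 granulocyte and monocyte markers, LYZ was the most abundant, and MPO, ELANE and CTSG had 3 counts or fewer in every line, the last none. Their sum was 88.7 and 70.7 CPM in the controls, 119, 31.7 and 48.5 CPM at 10, 15 and 25 nM, and 103 and 104 CPM at 50 and 200 nM. Of 12 lymphoid markers, CD3D was the most abundant and MS4A1, PAX5, CD2, CD8A and IL7R had 3 counts or fewer. Their sum was 26.1 and 20.6 CPM in the controls, 10.2, 8.76 and 16.0 CPM at 10, 15 and 25 nM, and 36.1 and 37.7 CPM at 50 and 200 nM, low where GATA2 was low. Of 12 stroma and endothelium markers, KRT18 was the most abundant, CDH5 had 0 counts and KDR 3 or fewer, and the sum ranged from 324 CPM in the drug naive line to 452 CPM at 50 nM. Of these 3 lists only 1, 1 and 3 markers were tested, and none of the 5 was called in either stage.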

How the data were processed

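RNA of 7 K562 lines was sequenced as paired reads from a directional kit, 1 library per line. Reads were mapped by the authors with STAR (hg19), and raw counts per gene from featureCounts were deposited. The versions of STAR and featureCounts, the annotation used for counting and its strand setting are not given in the sources used here. The authors also deposited gene lengths, used here for RPKM, and their own fold changes and p-values, which were not used. A filter of 10 CPM in 2 libraries left 10452 genes, those in the deposited tables. Scaling was by TMM (factors 0.971 to 1.01). Counts were tested with edgeR 4.0.16 (glmQLFit, glmQLFTest, R 4.3.3) in a single fit of all 7 libraries with a coefficient for each group and Benjamini-Hochberg adjustment over all genes. The common dispersion was 0.026, and a standard error is the log2 fold change divided by the root of F. Counts within a group varied beyond sampling noise (chi-square over degrees of freedom, 14.5 to 45.1).

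The factors and gene lists were chosen with earlier results of these data known. Beside the factors, the text names up to 4 genes per list, comparison and direction with the smallest p-values, the most abundant gene of a list, relatives and complex partners of a factor, and the 3 genes closest to each factor by Pearson's r of log2 CPM (prior count 2). Genes named as undetected, as under the filter in 1 group, or as examples of a marker list, were chosen after their values were seen. Symbols were found for 23738 of 25702 gene IDs. Positions are from GENCODE on GRCh37 and promoter windows from RefSeq. The functions were tested on simulated data. DESeq2 1.42.0 and limma-voom (limma 3.58.1) were alternatives, with other scalings, filters, thresholds and sets of libraries. Some listed genes are not reported here.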

Additional observations from a re-analysis of the deposited data

Results flagged for a closer look

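GATA1 stood apart because every line of a stage lay on 1 side of the control mean, and the 2 stages lay on different sides. Neither stage was called against the controls (adjusted p = 0.283 and 0.115 by edgeR), and the early stage lines overlap them. All 3 early stage lines were below the control mean of 209 CPM, at 165, 206 and 191 CPM, and both late stage lines were above it, at 235 and 295 CPM. The late stage exceeded the early stage by 0.49 ± 0.12 SE on the log2 scale, with an adjusted p of 0.0447 by edgeR, which does not pass 0.005. That p was 0.0707 with the 2 stages alone and 0.247 without the 200 nM line. The 15 nM line lies within the control range.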

How the results depend on the processing

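The number of factors called kept within 1.5 times its value with RLE factors, library totals, a filter of 1 CPM, limma-voom and, against the controls, no filter or 2 groups alone. In the early stage 5 of 9 factors were called by DESeq2 and 5 at a threshold of 0.05, with 3548 and 4865 genes called in all. Between the stages 3 factors were called by each (1135 and 1328 genes), and 1 factor (GATA2) and 295 genes with no filter. Late stage calls over all genes were 3542 at 0.05, 2503 by DESeq2, 1287 with no filter and 257 with the 2 groups alone. Leaving out each line in turn gave 0 to 4 factors and 208 to 2066 genes in the early stage, 0 to 2 factors and 33 to 596 genes in the late stage, and 0 to 1 factor and 0 to 198 genes between the stages. With all 5 DasR lines as 1 group, 1 factor (LMO2) and 845 genes were called. In that grouping the log2 fold change was 0.042 for GATA1, -0.497 for GATA2, 0.33 for TAL1 and 0.083 for GFI1B, each of the opposite sign to 1 of the stages and none called. Late stage log2 fold changes that turned without the 200 nM line ranged over the lines left out from -0.106 to 0.494 for GATA2, -0.441 to 0.134 for TAL1 and -0.157 to 0.022 for GFI1B. The late against early stage difference of LYL1 ranged from -0.003 to 0.248, turning without the 25 nM line. None of these values was called, and the cause was not tested. No scaling moved the median of all genes by more than 0.1 on the log2 scale. No paired analysis was possible because each line is 1 library and the labels pair no line with a line of another group.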
